A study of Mus musculus with 4 samples.

Results

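The genes described here are 38 that encode voltage-gated ion channels of neurons: 20 potassium channel genes, the hyperpolarization-activated genes Hcn2, Hcn3 and Hcn4, the sodium channel genes Scn1a, Scn2a, Scn3a and Scn8a, 8 calcium channel pore genes and the calcium channel subunits Cacna2d1, Cacna2d2 and Cacna2d3. They were taken as a list of symbols by gene family, with no measured value in the rule but with earlier results of these data known, and all 38 were found among the 32286 features counted. RNA of single nuclei was counted in 4 libraries, prepared from the dissected cortex and hippocampus of mice aged 5 weeks. The 2 control libraries are labelled as floxed Sel1L on both alleles (Sel1L fl/fl), and the other 2 as Sel1L SynCre, in which the same alleles are combined with a Cre transgene under the Synapsin I promoter, active in neurons. The comparison addresses how RNA differs when neurons are targeted to lose SEL1L, the membrane partner of the HRD1 ubiquitin ligase in ER-associated degradation. The paper reports a partial loss of the protein. It was undetectable in a share of cortical neurons and in nearly all of hippocampal CA3 and dentate gyrus, but largely kept in CA1. Both groups share the floxed alleles, other cell types keep Sel1L by design, and each group is 2 mice, with 1 library a mouse.

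Voltage-gated channels open or close with the membrane potential and set how a neuron fires. Sodium channels carry the rising phase of the action potential, potassium channels repolarize the membrane and tune its threshold and rate of firing, and calcium channels couple depolarization to transmitter release, pacemaking and gene expression. All are multi-pass membrane proteins that are folded, assembled and checked in the ER before they reach the axon, soma or dendrites, and neuron types are known to differ in the channels they use.

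The libraries are called by their labels, because Cre RNA did not follow them, although Sel1l RNA did separate the groups. Measured as CPM, which is a gene's UMIs scaled to a common library total, Sel1l RNA was 96.8 and 90.0 under the label Sel1L fl/fl but 155 and 128 under the label Sel1L SynCre, and counts from the 3′ end do not tell transcripts with the floxed part from those without it. Cre RNA was counted in 3 libraries, at 4.04 CPM in Sel1L fl/fl replicate 1, 0 of 68541216 UMIs in Sel1L fl/fl replicate 2 and 3.52 and 3.31 CPM in Sel1L SynCre. Replicate 1 of each group carried RNA of the Y-linked Ddx3y and replicate 2 carried Xist, so that each group held a male and a female library. After filters, 6805 to 11116 nuclei and 66102844 to 101282315 UMIs remained per library, and any 2 libraries shared 9 to 32 cell barcodes. Of 22647 neuron-like nuclei, 16919 fell into 11 subtypes with the marker genes listed for them: 7 excitatory (L2/3 IT-, L4/5 IT-, L5/6 IT- and L6 CT-like cortical neurons, dentate gyrus (DG)-, CA3- and CA1-like hippocampal neurons) and 4 inhibitory (Pvalb-, Sst-, Vip- and Lamp5-like). The L5/6 IT-like name rests on 3 of 7 markers, and 46.9% of its nuclei kept it when channel genes were left out of the clustering. UMIs were summed per subtype and library, which gave 44 sums of 122 to 855 nuclei and 1086166 to 11867305 UMIs.

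The annotated starts of 28 of the 38 genes were found in the RefSeq table of promoters, which holds 250 bases before and 50 bases after a start. The windows of 4 genes that changed in RNA are shown, on GRCm38.p6 and each on its own strand, to be read beside the values that follow. They are Kcnh5, the only member called higher under the label Sel1L SynCre, and Kcnq5, Kcnd2 and Cacna1i, which were called lower. The windows are chr12:75177283-75177582 (minus strand) for Kcnh5, chr1:21961893-21962192 (minus strand) for the start of Kcnq5 nearest the gene body, 1 of 2 in the table, chr6:21215096-21215395 (plus strand) for Kcnd2 and chr15:80286988-80287287 (plus strand) for Cacna1i. Capitals mark the GC box GGGCGG, read on either strand.
Kcnh5: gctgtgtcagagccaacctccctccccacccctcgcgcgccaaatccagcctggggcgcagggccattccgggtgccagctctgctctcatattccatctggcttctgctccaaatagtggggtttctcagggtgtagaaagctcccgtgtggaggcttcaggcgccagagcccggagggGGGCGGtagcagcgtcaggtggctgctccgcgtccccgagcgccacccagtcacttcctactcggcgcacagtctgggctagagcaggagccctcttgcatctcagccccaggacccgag
Kcnq5: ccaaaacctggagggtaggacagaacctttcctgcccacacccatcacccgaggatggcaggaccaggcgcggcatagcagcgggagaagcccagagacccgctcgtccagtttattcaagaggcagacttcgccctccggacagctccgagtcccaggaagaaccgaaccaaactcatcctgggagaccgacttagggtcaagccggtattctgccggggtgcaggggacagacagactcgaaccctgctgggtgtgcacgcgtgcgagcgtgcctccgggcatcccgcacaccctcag
Kcnd2: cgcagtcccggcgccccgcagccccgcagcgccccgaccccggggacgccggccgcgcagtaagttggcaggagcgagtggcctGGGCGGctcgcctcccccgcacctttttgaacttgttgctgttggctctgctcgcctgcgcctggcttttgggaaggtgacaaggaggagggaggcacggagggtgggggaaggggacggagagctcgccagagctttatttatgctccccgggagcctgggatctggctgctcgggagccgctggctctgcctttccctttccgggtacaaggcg
Cacna1i: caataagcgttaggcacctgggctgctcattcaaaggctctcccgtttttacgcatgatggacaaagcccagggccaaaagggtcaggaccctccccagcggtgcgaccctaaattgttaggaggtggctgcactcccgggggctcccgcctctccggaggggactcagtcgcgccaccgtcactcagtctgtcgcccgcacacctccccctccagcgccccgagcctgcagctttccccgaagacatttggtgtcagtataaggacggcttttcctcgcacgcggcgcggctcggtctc
Both Kcnh5 and Kcnd2 held a single GC box, and the Kcnq5 and Cacna1i windows held none. Over all members, 20 of 37 windows held it, against 35.7% of 32851 windows in the table, and the median GC content was 66.0% against 52.7%. The 37 windows come from 28 genes, and some windows of Kcnc2 overlap each other, so they are not separate units. The cAMP response element TGACGTCA was in 0 of the 37 windows (1.79% of all), the amino acid response motif TGATGNAA in 2 (3.97%), the unfolded protein response element TGACGTGG in 1 (0.676%) and the TATA box TATAAA in 2 (13.6%), each read on both strands.

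**Figure D1:**
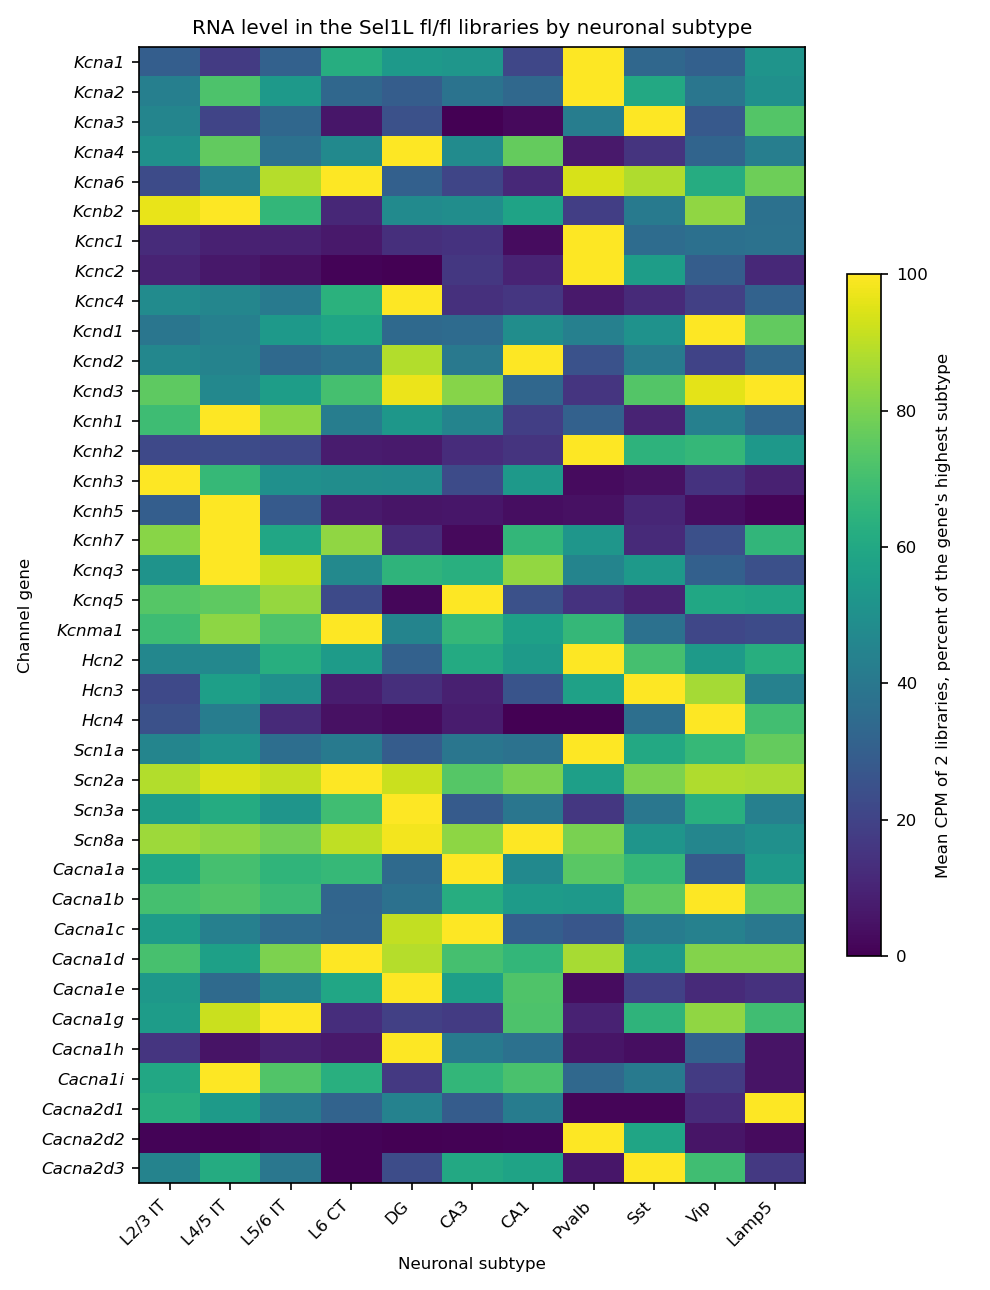
Mean CPM of the 2 libraries labelled Sel1L fl/fl in each of 11 neuronal subtypes (columns) for the 38 channel genes (rows), as a percentage of the gene's own highest subtype. Kcnc2 and Cacna2d2 were concentrated in Pvalb- and Sst-like neurons, whereas Scn2a and Cacna1d differed little between subtypes.

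In the libraries labelled Sel1L fl/fl, the potassium channel genes divided the neuron types sharply. These levels are CPM of the UMIs in a subtype, compared for the same gene between subtypes as a description, since the subtypes were defined in the same nuclei. Kcnc2, a fast delayed rectifier of quickly firing interneurons, was 3633 ± 253 CPM (mean ± SD, n = 2) in Pvalb-like and 2022 ± 372 CPM in Sst-like neurons, and 10.1 ± 4.35 CPM in DG-like neurons. Its relative Kcnc1 was also highest in Pvalb-like neurons, at 466 ± 38.5 CPM against 16.2 ± 2.54 CPM in CA1-like neurons, while Kcnc4 was highest in DG-like (39.6 CPM) and lowest in Pvalb-like neurons (2.70 CPM). Among the axonal Kcna genes, Kcna1 and Kcna2 peaked in Pvalb-like neurons (116 and 60.4 CPM) and were lowest in L4/5 IT-like (20.1 CPM) and DG-like neurons (17.8 CPM), respectively. Kcna4 ran from 4.56 CPM in Pvalb-like to 64.9 CPM in DG-like neurons and Kcna6 from 5.58 CPM in CA1-like to 48.7 CPM in L6 CT-like neurons, and neither was separated from the next subtypes. Kcna3 did not exceed 4.57 CPM, in Sst-like neurons, and had no UMI in CA3-like neurons, which allows up to 0.547 CPM.

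The A-type genes Kcnd2 and Kcnd3, whose channels inactivate quickly and oppose dendritic excitation, were highest in CA1-like (4448 ± 538 CPM) and Lamp5-like neurons (365 ± 4.49 CPM), and lowest in Vip-like (897 CPM) and Pvalb-like neurons (56.6 CPM). For Kcnd3, DG- and Vip-like neurons overlapped Lamp5-like neurons. Kcnd1 stayed between 2.50 CPM in DG-like and 7.29 CPM in Vip-like neurons. Kcnb2, a delayed rectifier, ranged from 145 CPM in L6 CT-like to 1313 CPM in L4/5 IT-like neurons, with L2/3 IT-like neurons overlapping the latter. The KCNQ genes form the M-current, which holds neurons back from repeated firing: Kcnq5 spanned 63.1 ± 11.8 CPM in DG-like to 3545 ± 387 CPM in CA3-like neurons, and Kcnq3 spanned 294 CPM in Lamp5-like to 1202 CPM in L4/5 IT-like neurons. Of the ether-à-go-go family, Kcnh1, Kcnh5 and Kcnh7 were highest in L4/5 IT-like neurons (421, 649 and 2664 CPM) and lowest in Sst-like (41.5 CPM), Lamp5-like (8.39 CPM) and CA3-like neurons (63.9 CPM). Kcnh3 was highest in L2/3 IT-like (91.8 CPM) and lowest in Pvalb-like neurons (2.69 CPM), whereas Kcnh2 was highest in Pvalb-like (11.1 CPM) and lowest in DG-like neurons (0.784 CPM). Kcnma1, which encodes the large-conductance calcium-activated channel, ran from 431 CPM in Vip-like to 2034 CPM in L6 CT-like neurons.

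The hyperpolarization-activated genes did not exceed 83.2 CPM in any subtype, and the sodium channel genes were detected in all 11 subtypes. Hcn2, which carries the pacemaker-like inward current, was 26.0 CPM in DG-like and 83.2 CPM in Pvalb-like neurons, and Hcn3 was 1.71 CPM in L6 CT-like and 21.4 CPM in Sst-like neurons. Hcn4 reached 4.10 CPM in Vip-like neurons and had no UMI in CA1-like or Pvalb-like neurons, which allows up to 0.267 and 0.499 CPM. Scn1a, the main sodium channel of fast-spiking interneurons, was 553 ± 9.92 CPM in Pvalb-like neurons and lowest in DG-like neurons, at 160 ± 11.1 CPM. Scn2a and Scn3a went the other way, lowest in Pvalb-like neurons (246 and 37.4 CPM) and highest in L6 CT-like (437 CPM) and DG-like neurons (231 CPM), and Scn8a ran from 194 CPM in Vip-like to 423 CPM in CA1-like neurons. The highest subtype was overlapped by DG-like neurons for Scn2a, and by DG- and L6 CT-like neurons for Scn8a.

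The calcium channel genes were spread by type. Cacna1a and Cacna1b, whose P/Q- and N-type channels trigger transmitter release, were highest in CA3-like (1423 CPM) and Vip-like neurons (340 CPM), and lowest in Vip-like (402 CPM) and L6 CT-like neurons (111 CPM). The L-type genes Cacna1c and Cacna1d ran from 408 CPM in Pvalb-like to 1513 CPM in CA3-like and from 400 CPM in Sst-like to 745 CPM in L6 CT-like neurons. For Cacna1c, DG-like neurons overlapped CA3-like neurons. Cacna1e, the R-type pore, ran from 38.3 CPM in Pvalb-like to 1207 CPM in DG-like neurons. Of the low-voltage-activated T-type genes, Cacna1g was highest in L5/6 IT-like (75.4 CPM, overlapping L4/5 IT-like neurons) and lowest in Pvalb-like neurons (7.28 CPM). Cacna1h was led by DG-like neurons (110 CPM, lowest 4.21 CPM in Sst-like) and Cacna1i by L4/5 IT-like neurons (69.4 CPM, lowest 3.73 CPM in Lamp5-like). The α2δ subunits, which bring calcium channels to the surface, divided the interneurons most clearly. Cacna2d1 was 1911 ± 275 CPM in Lamp5-like and 22.7 ± 6.41 CPM in Sst-like neurons, Cacna2d2 was 254 ± 9.10 CPM in Pvalb-like neurons but 0.742 ± 0.237 CPM in DG-like neurons, and Cacna2d3 was 1669 ± 11.2 CPM in Sst-like and 16.4 ± 7.55 CPM in L6 CT-like neurons.

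**Figure D2:**
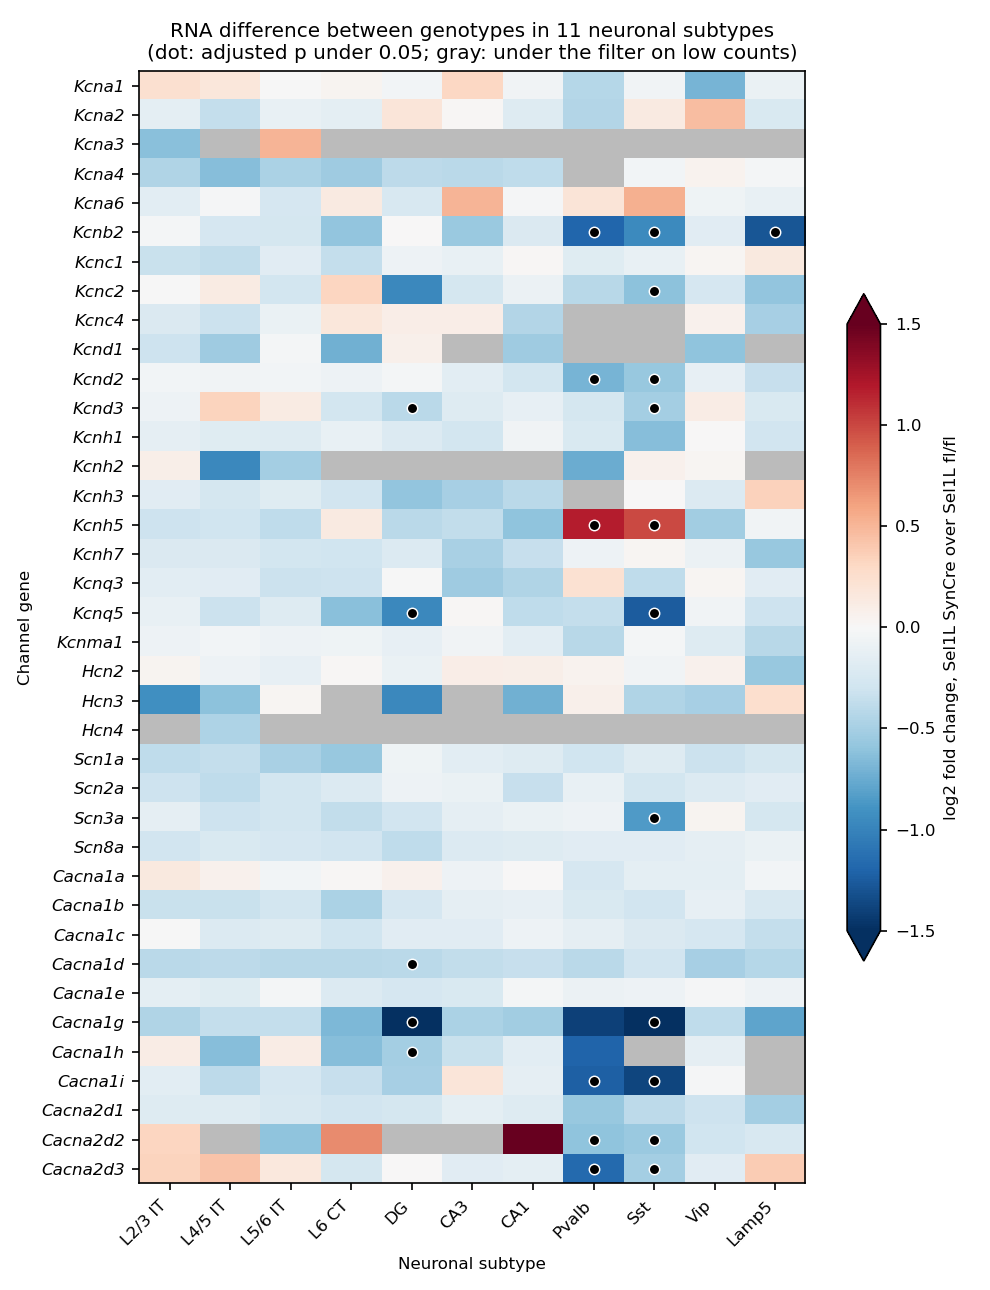
Fitted log2 fold change (color, Sel1L SynCre over Sel1L fl/fl, 2 libraries each) of the 38 channel genes (rows) in 11 neuronal subtypes (columns). The 23 dots mark an adjusted p under 0.05, 21 of them lower and 2 higher in Sel1L SynCre, and gray fields were under the filter on low counts.

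Between the genotypes, channel RNA was lower in the libraries labelled Sel1L SynCre in 21 of the 23 pairs that passed the test, the other 2 being Kcnh5, and the differences that passed the test lay in Sst-, Pvalb-, DG- and Lamp5-like neurons. Each gene was compared with edgeR's quasi-likelihood test on the 4 sums of a subtype, with Benjamini-Hochberg adjustment over all genes tested there and a threshold of 0.05, and 378 of 418 pairs of a member and a subtype had enough counts to be tested. In total 21 pairs were lower and 2 were higher, from 13 of the 38 members, and 25 members did not pass in any subtype. In Sst-like neurons 10 of 33 members were lower and 1 was higher, where 9.16% of 11823 genes were called (4.15% lower and 5.01% higher). In Pvalb-like neurons 5 of 32 were lower and 1 was higher, where 4.35% of genes were called (2.02% lower and 2.33% higher). In DG-like neurons 5 of 34 were lower and none higher, where 3.62% of genes were called (1.72% lower and 1.9% higher), and in Lamp5-like neurons 1 of 32 was lower, where 0.506% were called (0.191% lower and 0.315% higher). In all 23 pairs, the 2 libraries of the groups did not overlap. This is no separate support, because the pairs were selected by a test on the same libraries. The CPM given with these comparisons are scaled by TMM factors within the subtype, and "lower" and "higher" refer to the labels, with replicate 1 of Sel1L fl/fl carrying Cre RNA.

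The delayed rectifier gene Kcnb2 (chromosome 1, 15287254 to 15723750) was the only member lower in 3 subtypes. In Sst-like neurons it stood at 565 and 565 CPM under the label Sel1L fl/fl, against 300.2 and 285 CPM under Sel1L SynCre (log2 fold change −0.95 ± 0.14 SE, adjusted p = 6.01e-05). In Pvalb-like neurons the values were 257 and 248 CPM against 103 and 117 CPM (−1.19 ± 0.13, adjusted p = 0.000317). In Lamp5-like neurons, where it was the only member to pass, they were 624 and 409 CPM against 205 and 221 CPM (−1.28 ± 0.19, adjusted p = 0.0102). The groups were well apart in each, the Lamp5-like control libraries being the most scattered. Kcnc2 (chromosome 10, 112271121 to 112467024), which lets interneurons fire at high rates, was 2423 and 1798 CPM against 1399 and 1366 CPM in Sst-like neurons (−0.61 ± 0.15, adjusted p = 0.00986). In Pvalb-like neurons, its highest subtype, it was 4005 and 3505 CPM against 2837 and 2798 CPM, which did not pass (adjusted p = 0.0840).

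Of the A-type Kcnd genes, Kcnd2 and Kcnd3 were lower where they passed, and Kcnd1 passed in no subtype. Kcnd2 (chromosome 6, 21215503 to 21729805) was 2088 and 1777 CPM against 1336 and 1267 CPM in Sst-like neurons (−0.57 ± 0.14, adjusted p = 0.00979) and 1326 and 1000.4 CPM against 722 and 717 CPM in Pvalb-like neurons (−0.69 ± 0.15, adjusted p = 0.0164). In CA1-like neurons, where Kcnd2 is highest, its log2 fold change was −0.28 and did not pass. Kcnd3 (chromosome 3, 105452330 to 105674002) was 307 and 249.7 CPM against 206 and 188 CPM in Sst-like neurons (−0.50 ± 0.14, adjusted p = 0.0269) and 379 and 347 CPM against 289.6 and 259 CPM in DG-like neurons (−0.40 ± 0.10, adjusted p = 0.0456). These are modest differences, and the Kcnd3 groups lay close to each other.

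The M-current gene Kcnq5 (chromosome 1, 21398403 to 21961942), whose start is among the windows printed above, showed large differences in Sst- and DG-like neurons, the subtypes in which its control level is lowest. It was 342 and 366 CPM against 131 and 168 CPM in Sst-like neurons (−1.25 ± 0.15, adjusted p = 4.92e-06) and 73.9 and 55.7 CPM against 34.5 and 32.4 CPM in DG-like neurons (−0.96 ± 0.15, adjusted p = 0.00337). In CA3-like neurons, where it is highest, the log2 fold change was 0.01. Kcnh5 (chromosome 12, 74897220 to 75177332), an ether-à-go-go channel gene, was the only member called higher, and only in Sst- and Pvalb-like neurons. It was 70.2 and 74.3 CPM in Sel1L fl/fl against 149 and 138 CPM in Sel1L SynCre in Sst-like neurons (0.99 ± 0.15, adjusted p = 9.81e-05), and 36.2 and 26.7 CPM against 76.7 and 67.5 CPM in Pvalb-like neurons (1.18 ± 0.18, adjusted p = 0.00256). In L4/5 IT-like neurons, its highest subtype, the log2 fold change was −0.30 and did not pass. Kcnh5 was fitted below 0 in 8 of 11 subtypes, none of which passed. Its log2 fold changes ran from −0.60 to 1.18, with a median of −0.31.

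**Figure D3:**
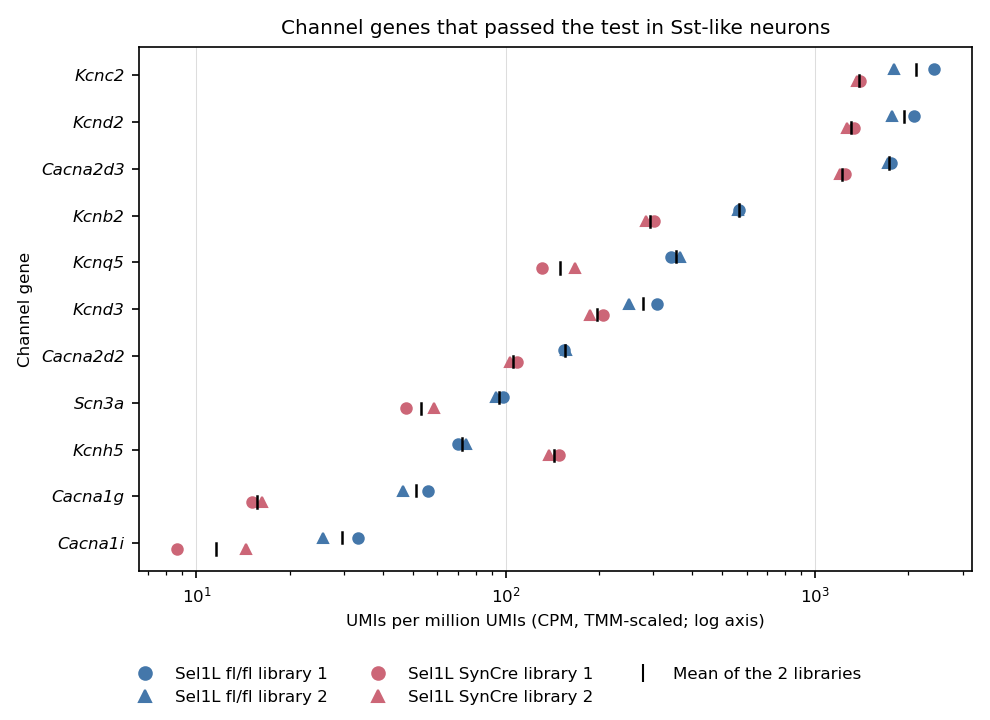
CPM (log axis, TMM-scaled) of the 11 channel genes that passed the test in Sst-like neurons, with a point for each library and a bar for the mean of 2. Kcnh5 is the only gene with both Sel1L SynCre libraries to the right, and the Sel1L SynCre libraries of Cacna1g sit at 15.2 and 16.3 CPM against 46.4 and 55.9 CPM.

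Among the sodium channel genes only Scn3a passed, and only in Sst-like neurons. Scn3a (chromosome 2, 65457118 to 65567627), which is best known from the developing brain, was 97.6 and 92.9 CPM against 47.7 and 58.5 CPM there (−0.85 ± 0.17, adjusted p = 0.00144). Scn1a, Scn2a and Scn8a were called in no subtype, but their fitted log2 fold changes were below 0 in 11 of 11 subtypes, from −0.06 to −0.57 for Scn1a, −0.08 to −0.38 for Scn2a and −0.10 to −0.38 for Scn8a. Both Sel1L SynCre libraries lay below both Sel1L fl/fl libraries in 10, 9 and 8 of the 11 subtypes, respectively, where 18.4% to 24.6% of all genes did so in a given subtype. Scn1a in L6 CT-like neurons was 233 and 233 CPM against 168 and 145 CPM (−0.57 ± 0.13, adjusted p = 0.0815). The 11 subtypes come from the same 4 libraries, so these repeats are not independent.

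Among the T-type calcium channel genes, Cacna1g in DG- and Sst-like neurons had the most negative log2 fold changes of the 23 called pairs. Cacna1g (chromosome 11, 94408391 to 94474198) was 55.9 and 46.4 CPM against 15.2 and 16.3 CPM in Sst-like neurons (−1.71 ± 0.23, adjusted p = 1.81e-05). In DG-like neurons it was 15.1 and 13.9 CPM against 4.19 and 2.31 CPM, which rest on 102 and 60 UMIs against 16 and 8 UMIs (−2.14 ± 0.31, adjusted p = 0.00185). Both Sel1L SynCre libraries were lower in all 11 subtypes, with log2 fold changes from −0.35 to −2.14, although the other 9 did not pass. In a given subtype 18.4% to 24.6% of all genes were lower in this way, and the share lower in all 11 is not given here. The subtypes come from the same 4 libraries, so these repeats are not independent. Cacna1h (chromosome 17, 25374285 to 25433783) was 121 and 105 CPM against 78.0 and 81.0 CPM in DG-like neurons, its main subtype (−0.51 ± 0.12, adjusted p = 0.0372). Cacna1i (chromosome 15, 80287238 to 80398279) was 33.3 and 25.7 CPM against 8.67 and 14.5 CPM in Sst-like neurons (−1.38 ± 0.29, adjusted p = 0.00266). In Pvalb-like neurons it was 25.6 and 23.0 CPM against 7.59 and 13.2 CPM, from 18 and 33 UMIs in Sel1L SynCre (−1.22 ± 0.28, adjusted p = 0.0251).

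Of the high-voltage-activated genes, Cacna1d (chromosome 14, 30039939 to 30491455), an L-type gene of pacemaking neurons, passed in DG-like neurons, at 648 and 710 CPM against 477 and 548 CPM (−0.41 ± 0.10, adjusted p = 0.0469). Its difference was nearly the same size elsewhere: both Sel1L SynCre libraries were lower in 11 of 11 subtypes, and the log2 fold change ran from −0.29 in Sst-like to −0.50 in Vip-like neurons, though only DG-like neurons passed. Cacna1b was below in 10 of 11 subtypes without passing (−0.12 to −0.47), whereas Cacna1a lay on either side of 0 (−0.25 to 0.15). Cacna1c and Cacna1e were fitted below 0 in all 11 subtypes, with no call and at most −0.35 and −0.25. The α2δ gene Cacna2d2 (chromosome 9, 107399612 to 107529343) was 154 and 157 CPM against 108 and 103 CPM in Sst-like neurons (−0.55 ± 0.14, adjusted p = 0.0135) and 260 and 265 CPM against 167 and 177 CPM in Pvalb-like neurons (−0.61 ± 0.13, adjusted p = 0.0156). Cacna2d3 (chromosome 14, 28904943 to 29721864) was 1761 and 1713 CPM against 1248 and 1199.8 CPM in Sst-like neurons (−0.51 ± 0.13, adjusted p = 0.0183). In Pvalb-like neurons it was 89.1 and 124 CPM against 44.7 and 49.9 CPM (−1.16 ± 0.18, adjusted p = 0.00275). Cacna2d1 was below in 10 of 11 subtypes (−0.15 to −0.57) and passed in none. The other α2δ genes went both ways. Cacna2d2 was below in 3 and above in 3 of 8 subtypes (−0.61 to 1.52). Cacna2d3 was below in 2 and above in 3 of 11 (−1.16 to 0.43). For these counts of subtypes, 18.4% to 24.6% of all genes had both Sel1L SynCre libraries below in a given subtype, and 18.5% to 26.3% had both above. The subtypes come from the same 4 libraries, so the repeats are not independent.

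**Figure D4:**
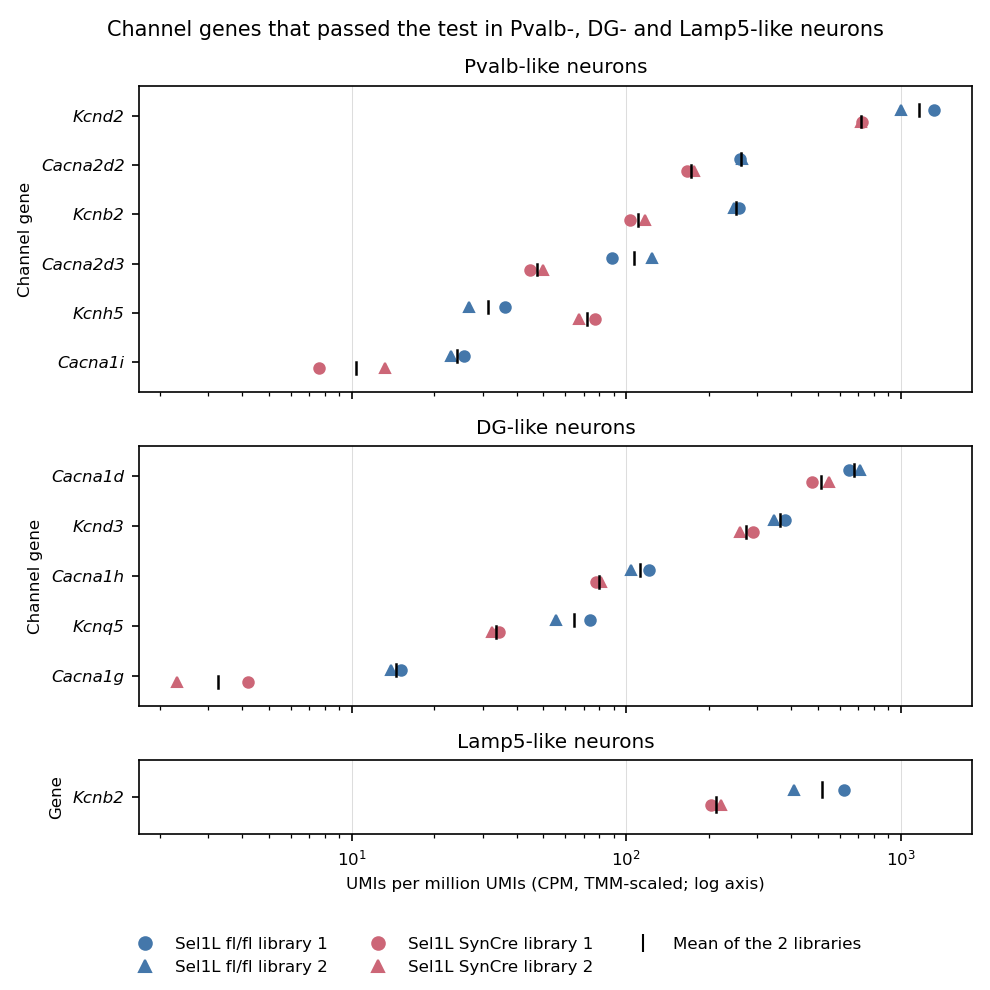
CPM (log axis, TMM-scaled) of the channel genes that passed the test in Pvalb-like (6 genes), DG-like (5 genes) and Lamp5-like neurons (1 gene), with a point for each library and a bar for the mean of 2. The points of the 2 genotypes do not overlap for any gene, but the genes were selected by a test on these same libraries. Kcnh5 in Pvalb-like neurons is the only gene with Sel1L SynCre to the right.

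How far these calls rest on single libraries differed by gene. With the replicate number, which is also the sex, as a block, Kcnd2, Cacna1i and Cacna2d2 in Pvalb-like neurons did not pass (adjusted p = 0.0928, 0.0891 and 0.0813). Of the 23 calls, 13 held without Sel1L SynCre replicate 1, 15 without Sel1L SynCre replicate 2, 19 without Sel1L fl/fl replicate 1, the library with Cre RNA, and 21 without Sel1L fl/fl replicate 2, and none of the 23 changed direction. The number of members called in all fell to 6 in Sst-like and 3 in Pvalb-like neurons without Sel1L SynCre replicate 1. In Lamp5-like neurons that number rose with some libraries left out. The shares of all genes called under these settings are not set beside these counts, so they are not read as a difference. Calls of Cacna1g, Kcnb2, Kcnh5, Kcnq5 and Scn3a in Sst-like, Kcnb2 in Lamp5-like and Kcnh5 in Pvalb-like neurons held in each of 13 alternatives, single libraries left out included. Without either Sel1L SynCre library, Kcnc2, Kcnd2, Kcnd3, Cacna2d2 and Cacna2d3 in Sst-like neurons and Kcnd2 and Cacna2d2 in Pvalb-like neurons no longer passed, with adjusted p from 0.0613 to 0.295. Without Sel1L fl/fl replicate 1, Kcnd3 in Sst- and DG-like, Cacna1h in DG-like and Cacna1i in Pvalb-like neurons did not pass, and without Sel1L SynCre replicate 1 neither did Cacna1d and Cacna1h in DG-like and Cacna1i in Pvalb-like neurons. Kcnd3 in DG-like neurons also did not pass without Sel1L SynCre replicate 2 or Sel1L fl/fl replicate 2, nor Cacna1d without the latter. With likely doublets kept, Kcnb2 and Kcnd2 in Pvalb-like and Cacna1d in DG-like neurons did not pass (adjusted p = 0.0672, 0.108 and 0.0505), and Cacna2d3 in Pvalb-like neurons turned to 0.33. DESeq2 did not call Kcnd3, Cacna1i and Cacna2d2 in Sst-like, Cacna1i in Pvalb-like and Cacna1h in DG-like neurons, and with all sums thinned to the smallest one, Kcnd3 in Sst-like and Kcnq5, Cacna1d, Cacna1g and Cacna1h in DG-like neurons did not pass.

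The remaining potassium and hyperpolarization-activated genes passed nowhere. Kcna1, Kcna2, Kcna3, Kcna6, Kcnc1, Kcnc4, Kcnh2, Hcn2 and Hcn3 were fitted on both sides of 0 across subtypes. Kcna4 was below 0 in 9 of 10 subtypes (median −0.40), and in L4/5 IT-like neurons it was 47.7 and 52.6 CPM against 36.3 and 28.7 CPM (−0.63 ± 0.15, adjusted p = 0.0606). Kcnma1 was below 0 in 11 of 11 subtypes but by little (median −0.08), and Kcnh1 and Kcnh7 in 10 of 11 (medians −0.19 and −0.22). Kcnd1, Kcnh3 and Kcnq3 were below 0 in 6 of 7, 8 of 10 and 9 of 11 subtypes. Hcn4 could be tested in 1 subtype, and Kcna3 in 2. By class over all tested pairs, fitted values were below 0 in 157 of 198 for the potassium genes (median −0.18), 12 of 21 for the Hcn genes (−0.07), 43 of 44 for the sodium genes (−0.24), 77 of 85 for the calcium pores (−0.25) and 22 of 30 for the α2δ subunits (−0.22). The pairs of a class repeat the same genes in the same 4 libraries, so they are not independent. No share of all genes fitted below 0 is set beside these counts.

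In 7 subtypes no member passed, namely L2/3 IT-, L4/5 IT-, L5/6 IT-, L6 CT-, CA3-, CA1- and Vip-like neurons, where 0.256%, 1.85%, 0.785%, 0.661%, 0.0492%, 0.0156% and 0.0179% of all genes were called. At an unadjusted p under 0.05 by edgeR, 9, 12, 7, 11, 4, 9 and 4 members were counted there. No share of all genes at that threshold is set beside these counts, so they are not read as a difference. DESeq2 called 1 member in L6 CT-like neurons and 0 in the other 6. Without Sel1L fl/fl replicate 2, edgeR called 5 members in L4/5 IT-, 4 each in L5/6 IT-, L6 CT- and CA1- and 3 in CA3-like neurons. Without Sel1L fl/fl replicate 1, it called 4 in L4/5 IT-, 2 each in L2/3 IT- and L5/6 IT- and 1 in CA1-like neurons. Among these, Cacna2d3 in L2/3 IT-like (0.56) and Kcnd3 in L4/5 IT- and L5/6 IT-like neurons (0.59 and 0.54) were higher, and the others were lower. The counts with a library left out also stand without a share of all genes. The member nearest to passing was Cacna1d in L2/3 IT-like (adjusted p = 0.214) and Vip-like neurons (0.666), Kcna4 in L4/5 IT-like (0.0606), Scn1a in L5/6 IT-like (0.1251) and L6 CT-like (0.0815), Kcnb2 in CA3-like (0.411) and Cacna1g in CA1-like neurons (0.306), all fitted below 0. The nearest uncalled members elsewhere were Kcna6 in Sst-like (higher, 0.0662), Kcnc2 in Pvalb-like (0.0840), Scn8a in DG-like (0.0693) and Kcnh7 in Lamp5-like neurons (0.167).

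**Figure D5:**
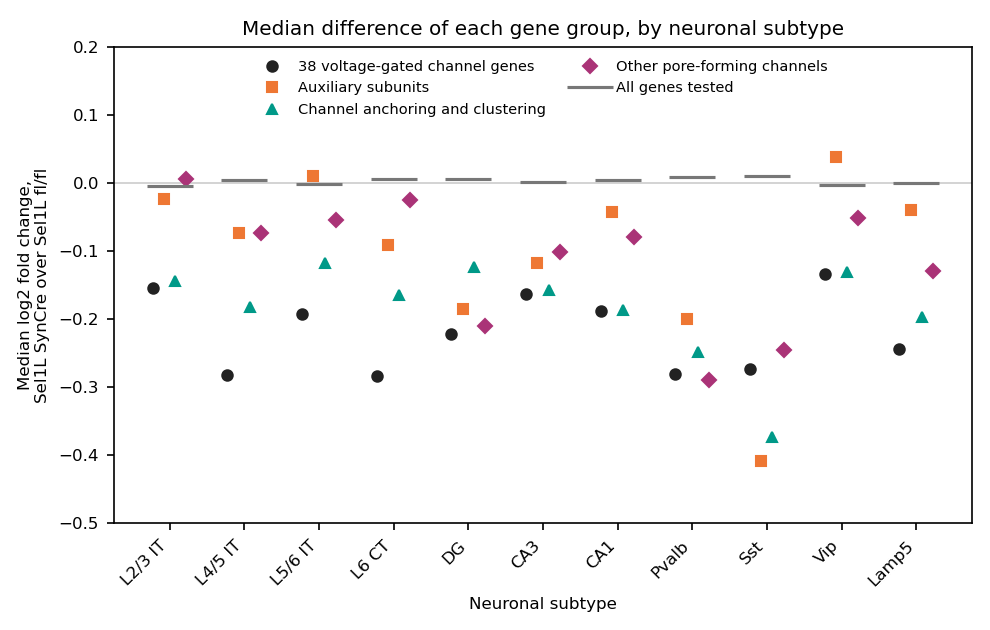
Median fitted log2 fold change (Sel1L SynCre over Sel1L fl/fl) of the 38 channel genes and of 3 further lists of channel-related genes in each neuronal subtype, with the median of all genes tested as a gray dash. The black points lie between −0.13 and −0.28 in all 11 subtypes, and the dashes lie within 0.01 of 0.

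As a group, the members leaned lower in every subtype, whether or not any passed. Of the 378 fitted values 311 were below 0, and the median of the members was −0.15 in L2/3 IT-, −0.28 in L4/5 IT-, −0.19 in L5/6 IT-, −0.28 in L6 CT-, −0.22 in DG-, −0.16 in CA3-, −0.19 in CA1-, −0.28 in Pvalb-, −0.27 in Sst-, −0.13 in Vip- and −0.24 in Lamp5-like neurons. The median of all genes was within 0.01 of 0 in each. Over the 13 alternatives the members' medians stayed below 0 in all subtypes, from −0.40 to −0.04. Counted without a fit, both Sel1L SynCre libraries lay below both Sel1L fl/fl libraries for 18 of 37 members in L2/3 IT- (21.7% of all genes), 20 of 36 in L4/5 IT- (22.4%), 19 of 37 in L5/6 IT- (19.8%), 18 of 34 in L6 CT- (20.4%) and 21 of 34 in DG-like neurons (23.1%). The same was so for 13 of 32 in CA3- (19.2%), 14 of 35 in CA1- (19.2%), 22 of 32 in Pvalb- (23.1%), 19 of 33 in Sst- (24.6%), 11 of 36 in Vip- (18.4%) and 22 of 32 in Lamp5-like neurons (20.2%). Both lay above for 0 to 4 members per subtype, where in the same order 22.2%, 23.8%, 21.1%, 21.9%, 22.9%, 19.7%, 19.7%, 24.2%, 26.3%, 18.5% and 21.1% of all genes did. Of the 27 members tested in all 11 subtypes, 11 were fitted below 0 in each, where 5.58% of the 9605 genes tested in all 11 were: Kcnd2, Kcnma1, Scn1a, Scn2a, Scn8a, Cacna1b, Cacna1c, Cacna1d, Cacna1e, Cacna1g and Cacna2d1. As 1 set of 4 libraries underlies all subtypes, a shift shared by libraries of a group would appear in each.

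Several other measures are given beside these differences, and their part in them was not tested. The members are long genes, with a median length of 153 kb in GENCODE and 23 of 38 at 100 kb or more. In Sst-like neurons all genes of at least 100 kb had a median of −0.17 and 14.8% of them were called lower, in Pvalb-like −0.15 and 8.69%, and in DG-like neurons −0.09 and 5.82%. The members of that length had medians of −0.38, −0.26 and −0.23, and the shorter members −0.04, −0.42 and −0.17. Sel1l itself was called higher in the same 4 subtypes in which members passed, by 1.92 in Sst-, 2.01 in Pvalb-, 1.41 in DG- and 1.00 in Lamp5-like neurons on the log2 scale (adjusted p = 1.00e-07, 6.83e-05, 3.26e-05 and 0.0172). With Sel1L fl/fl first and replicate 1 before replicate 2, Sel1l was 105 and 98.9 CPM against 461 and 307 CPM in Sst-like neurons. It was 97.3 and 90.6 CPM against 456 and 301 CPM in Pvalb-like and 83.9 and 73.5 CPM against 233 and 188 CPM in DG-like neurons. In Lamp5-like neurons it was 119 and 126 CPM against 279 and 211 CPM. Both Sel1L SynCre libraries were also above both Sel1L fl/fl libraries in CA3-, L4/5 IT- and L6 CT-like neurons, where no member passed. There Sel1l was at 0.76, 0.57 and 0.32 without passing (adjusted p = 0.118, 0.0521 and 0.394). In L2/3 IT-, L5/6 IT-, CA1- and Vip-like neurons the groups overlapped. The summed inhibitory markers (5 of 5 genes detected) were also lower in Sel1L SynCre, at 1378 and 1838 CPM against 2026 and 2369 CPM in Sst-like, 9275 and 10363 CPM against 11976 and 12500.1 CPM in Pvalb-like, and 9440.4 and 9799 CPM against 11763 and 14063 CPM in Lamp5-like neurons. The subtypes' own markers were lower as well: 977 and 1183 CPM against 1237 and 1302 CPM for the 4 Sst genes, 953 and 1126 CPM against 1212 and 1383 CPM for the 5 Pvalb genes, 1295 and 1290.1 CPM against 1512 and 1512 CPM for the 6 DG genes and 1316 and 1529.7 CPM against 1963 and 2285 CPM for the 5 Lamp5 genes. Own markers were also lower where no member passed: 1100 and 1164 CPM against 1237 and 1372 CPM in L2/3 IT-, 1461 and 1488 CPM against 1669 and 2118 CPM in L4/5 IT- and 289 and 351 CPM against 409 and 464 CPM in L5/6 IT-like neurons. In L6 CT-, CA3-, CA1- and Vip-like neurons they overlapped between groups. The inhibitory markers were lower in Vip-like neurons too, at 7202 and 7843 CPM against 8436 and 8930 CPM.

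Glial RNA was low in these neurons and did not always overlap between groups. The 6 oligodendrocyte markers summed to 248 and 256 CPM against 324 and 357 CPM in DG-like, 43.4 and 48.1 CPM against 57.7 and 89.3 CPM in Sst-like, 31.3 and 46.0 CPM against 71.7 and 78.2 CPM in Lamp5-like and 45.1 and 68.9 CPM against 66.6 and 71.3 CPM in Pvalb-like neurons, with the values of Sel1L SynCre first. In oligodendrocyte-like nuclei they summed to 14428 to 19037 CPM. The 6 astrocyte markers lay between 7.49 and 72.3 CPM and the 7 microglia markers between 51.7 and 112 CPM in these 4 subtypes. Every gene of these 3 lists was detected in each of the 4 subtypes. Of 6 lists for non-neuronal cells, both Sel1L SynCre libraries were below both Sel1L fl/fl libraries for 3 in DG-like, 2 in Lamp5-like, 1 in Sst-like and 0 in Pvalb-like neurons, and above them for 1, 1, 0 and 2. Those below included the oligodendrocyte precursor markers in Lamp5-like neurons (73.6 and 77.3 CPM against 166 and 233 CPM), where the defining gene Cspg4 was at 0. Their part in the channel differences was not tested. In counts of RNA per subtype, fewer transcripts of a gene in each nucleus and a changed mix of nuclei within a subtype cannot be told apart.

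Whether a subtype responded unlike CA1-like neurons was tested directly with an interaction term and library as a block. CA1 was the comparator because the paper found SEL1L protein largely preserved there. The paper also images nuclear ATF4, a stress-response factor, together with a raised signal of the ER marker KDEL in CA1 of Sel1L SynCre mice. In CA1-like neurons no member passed. In Sst-like neurons 8 of 37 members differed from CA1-like neurons (3.32% of all genes did), in Pvalb-like 6 of 36 (2.73%) and in DG-like neurons 3 of 35 (2.77%). Kcnb2 was lowered more in Sst- and Pvalb-like neurons (difference of log2 fold changes −0.73 ± 0.14 and −0.97 ± 0.15, adjusted p = 0.00321 and 0.000270), where its log2 fold change in CA1-like neurons was −0.21. Kcnh5 differed most clearly, by 1.61 ± 0.24 in Sst-like and 1.79 ± 0.22 in Pvalb-like neurons (adjusted p = 0.000231 and 9.75e-06), from −0.60 in CA1-like neurons. Cacna1g differed in Sst- and DG-like neurons (−1.18 ± 0.24 and −1.59 ± 0.31, adjusted p = 0.00524 and 0.00121), and Kcnq5 in the same subtypes (−0.86 ± 0.17 and −0.55 ± 0.14, adjusted p = 0.00383 and 0.0230). The Kcnq5 difference in DG-like neurons did not pass with any single library left out, and ran from −0.93 to −0.50 over 7 alternatives. DESeq2 did not call it (adjusted p = 0.319), nor Cacna1g in Sst- or DG-like neurons (adjusted p = 0.289 and 0.176). Scn3a and Kcnc2 differed in Sst-like neurons (−0.74 and −0.52), Cacna1i in Sst- and Pvalb-like (−1.25 and −1.08) and Cacna2d3 in Pvalb-like neurons (−0.99). Against Vip-like neurons, Kcnc2 was at −0.35 (adjusted p = 0.275) and Cacna1i at −1.37 and −1.26 (adjusted p = 0.130 and 0.240), which did not pass.

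Part of these interactions comes from CA1-like neurons. The difference of Cacna2d2 (−2.05 in Sst-like and −2.10 in Pvalb-like neurons) rests on a log2 fold change of 1.52 in CA1-like neurons, from 22 and 9 UMIs against 18 and 41 UMIs, which did not pass there. Against Vip-like neurons it was −0.23 and −0.35 (adjusted p = 0.841 and 0.811). Kcnq3 differed by 0.45 in DG-like and 0.68 in Pvalb-like neurons while it was fitted at −0.45, uncalled, in CA1-like neurons, and against Vip-like neurons the values were −0.08 and 0.15 (adjusted p = 0.931 and 0.814). Without Sel1L fl/fl replicate 1, 9 of the 17 interactions passed, without Sel1L SynCre replicate 1 also 9, and 4 members in all then passed in Sst-like neurons under each, while 1 passed in DG-like neurons without Sel1L fl/fl replicate 1 or Sel1L SynCre replicate 2. The same 4 libraries enter both sides of each interaction, and DESeq2 called 7 of the 17, among them Kcnb2 and Kcnh5 in both interneuron subtypes.

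The partners of these channels were examined as 3 lists, beside the shares of all genes called that are given above (9.16% in Sst-, 4.35% in Pvalb- and 3.62% in DG-like neurons). Of the 28 calls in these lists, 8 held without Sel1L SynCre replicate 1, 15 without Sel1L SynCre replicate 2, 20 without Sel1L fl/fl replicate 1, 23 without Sel1L fl/fl replicate 2 and 16 under DESeq2. Of 39 auxiliary subunits, 5 of 25 tested were lower and 1 higher in Sst-like, 3 of 26 lower and 1 higher in Pvalb-like and 2 of 30 lower in DG-like neurons, with medians of −0.41, −0.20 and −0.18 and no call in the other 8 subtypes. In those 8 subtypes the medians of this list were nearer to 0, from −0.12 in CA3-like to 0.04 in Vip-like neurons. Kcnip4 and Kcnip2, calcium-binding subunits that bring A-type channels to the surface, both fell in Sst- and Pvalb-like neurons, where Kcnd2 was also called lower. Kcnip4 fell in DG-like neurons too, where the log2 fold change of Kcnd2 was −0.03 and did not pass. Kcnip4 was 3709 and 2245 CPM against 1285 and 1343 CPM in Sst-like neurons (−1.18 ± 0.18, adjusted p = 8.48e-05), and it fell by 0.38 in DG-like and by 0.73 in Pvalb-like neurons (adjusted p = 0.0107 and 0.00730). Kcnip2 was 166 and 119.8 CPM against 59.0 and 76.3 CPM in Pvalb-like neurons (−1.09 ± 0.18, adjusted p = 0.00448) and fell by 1.82 in Sst-like neurons from 24.5 and 19.7 CPM (adjusted p = 0.000976). Dpp10, another A-type partner, fell by 0.94 in Sst-like neurons (adjusted p = 8.9e-05), as did Kcnab3 by 1.87 and the large-conductance channel subunit Kcnmb2 by 0.58 (adjusted p = 0.00557 and 0.00842). Kcnab1, a β subunit of Kcna channels, fell by 0.40 in DG-like and by 0.51 in Pvalb-like neurons (adjusted p = 0.0359 and 0.0425). Cacng8, a member of the γ subunit family that also escorts AMPA receptors, rose in Sst- and Pvalb-like neurons by 0.77 and 0.72 (adjusted p = 0.00135 and 0.0239).

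Of 21 genes for channel anchoring and clustering, 4 of 21 were lower in Sst-like, 2 of 21 in Pvalb-like, 1 of 19 in DG-like and 1 of 20 in L4/5 IT-like neurons, and none was higher in any subtype. Fgf13, an intracellular FGF that binds sodium channels, was 238 and 203 CPM against 95.9 and 130.3 CPM in Sst-like neurons (−0.97 ± 0.15, adjusted p = 0.000186). It also fell by 0.61 in Pvalb-like and 0.69 in L4/5 IT-like neurons (adjusted p = 0.0385 and 0.0252). The others were the axonal adhesion genes Cntnap2 and Cntn1 and the active zone gene Rimbp2 in Sst-like (−0.61, −0.49 and −0.44), Lgi1 in Pvalb-like (−0.70) and Nrcam in DG-like neurons (−0.45). The medians of this list ran from −0.12 to −0.37 over the 11 subtypes. Of 30 other pore-forming channels, 2 of 20 were lower and 2 higher in Sst-like, 1 of 19 lower and 1 higher in Pvalb-like, 1 of 27 lower in L4/5 IT-like and 1 of 20 higher in Lamp5-like neurons. The medians of these pore-forming channels ran from −0.29 in Pvalb-like to 0.006 in L2/3 IT-like neurons. Kcnt2, a sodium-activated potassium channel gene, was 178 and 165 CPM against 326 and 269.6 CPM in Sst-like neurons (0.80 ± 0.14, adjusted p = 0.000588) and 66.2 and 66.8 CPM against 222 and 102 CPM in Pvalb-like neurons (1.28 ± 0.27, adjusted p = 0.0149). Kcnk10, a background leak channel gene, was 49.4 and 28.4 CPM against 82.9 and 63.3 CPM in Sst-like neurons (0.88 ± 0.21, adjusted p = 0.00955). In Lamp5-like neurons it was 0.637 and 1.89 CPM against 14.7 and 18.2 CPM (adjusted p = 0.0172). The 2 Sel1L fl/fl values there rest on very few UMIs, out of 1700653 and 1086387 UMIs in these sums. Among those that fell were Kcnj3 (−0.66) in Sst-like, Kcnn2 (−0.60) in Pvalb-like and Scn7a (−0.86) in L4/5 IT-like neurons.

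Of the 13 called members, Kcnd3, Scn3a, Cacna1d, Cacna1h, Cacna2d2 and Cacna2d3 overlap another annotated gene on the opposite strand, and Kcnd3 also one on its own strand, so that some of their reads could belong to those genes. The labels and methods used here do not state whether Cell Ranger counted reads by strand or in introns. P-values within a subtype rest on 2 mice per group, with each gene's spread moderated by that of the other genes in the fit. The interactions have library as a block, which takes out the level that a mouse shares between subtypes. Their p-values rest on how the difference between subtypes varies between the 2 mice of a group, not on the spread of the levels themselves. With 2 against 2, an exact permutation of the libraries cannot give a two-sided p below 0.333.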

How the data were processed

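Nuclei of cortex and hippocampus were profiled by 3′ single-nucleus RNA sequencing (10x Genomics, version 3 chemistry) in 4 libraries. Per the labels, the authors made the deposited matrices of raw UMI counts with Cell Ranger 6.1.0 on GRCm38, and whether reads in introns or on the opposite strand were counted is not given in the sources used here. Nuclei with more than 600 genes and under 5% mitochondrial UMIs were kept, and likely doublets (Scrublet, at 0.8% per 1000 nuclei) were removed, 426 to 1246 a library. Nuclei were integrated and clustered with Seurat 5.3.0 (RPCA, 2000 features, 17 dimensions, resolution 0.2 for all nuclei and 0.4 for neurons), and clusters were named when at least 3 listed markers were detected in 5% of nuclei, a share set after the data were seen. Raw counts were summed per subtype and library and tested with edgeR 4.0.16 (TMM, filterByExpr, quasi-likelihood F test, Benjamini-Hochberg adjustment over all genes tested, threshold 0.05). Interactions with CA1-like neurons were fitted with library as a block. On simulated counts for Sst-like neurons, 147 of 200 genes changed 2-fold were recovered among 11782 genes. The simulation gave all genes the same spread and changed only genes above a minimum mean count, so it does not cover low or more variable genes.

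DESeq2 1.42.0, other size factors, filters, thinning, doublets kept, names without integration or without channel genes, the replicate number as a block and each library left out were run as alternatives. Every member was described by its highest and lowest subtype, and the text names each member called, the uncalled member nearest to passing per subtype, and the listed genes called, except 1 that is not reported here. Intervals from 0 UMIs allow 3 counts and cover counting error only. Gene positions are from GENCODE vM21, which matched 32235 of 32286 features, and promoter sequences from RefSeq. Members and lists were chosen with earlier results of these data known.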

Additional observations from a re-analysis of the deposited data

Results flagged for a closer look

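For 17 pairs of a member and a subtype, the genotype difference was unlike that in CA1-like neurons by the interaction test (edgeR, adjusted p under 0.05). All are differences of log2 fold changes, with negative values for a member lowered more than in CA1-like neurons, and they share the same CA1-like sums. In DG-like neurons they were −0.55 for Kcnq5, −1.59 for Cacna1g and 0.45 for Kcnq3. In Pvalb-like neurons they were −0.97 for Kcnb2, −2.10 for Cacna2d2, 1.79 for Kcnh5, −0.99 for Cacna2d3, 0.68 for Kcnq3 and −1.08 for Cacna1i. In Sst-like neurons they were −0.73 for Kcnb2, −0.86 for Kcnq5, −0.74 for Scn3a, −2.05 for Cacna2d2, −0.52 for Kcnc2, −1.18 for Cacna1g, 1.61 for Kcnh5 and −1.25 for Cacna1i. Kcnb2 in both interneuron subtypes and Kcnh5 in both passed under each of 7 alternatives.

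Cre RNA, which lies outside the channel measurements, was present at 4.04 CPM in Sel1L fl/fl replicate 1, 3.52 CPM in Sel1L SynCre replicate 1 and 3.31 CPM in Sel1L SynCre replicate 2, above the 0 UMIs of Sel1L fl/fl replicate 2. The genotype of the library labelled Sel1L fl/fl replicate 1 was not tested further.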

How the results depend on the processing

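Of the 23 calls, 23 held with relative log expression size factors, 23 with no filter, 23 with channel genes left out of the clustering, 22 with names made without integration, 19 with doublets kept and 18 each under DESeq2 and thinning. The 1 reversal was Cacna2d3 in Pvalb-like neurons with doublets kept (0.33), and among interactions Kcnq3 in DG-like neurons against Vip-like in place of CA1-like neurons (−0.0798). Counts of members called moved as follows, and the cause was not tested. The shares of all genes called under these settings are not set beside them. With no filter on low counts they were 1 in L4/5 IT-, 3 in L6 CT-, 8 in DG-, 1 in CA1- and 4 in Lamp5-like neurons. DESeq2 called 1 in L6 CT- and 2 in Lamp5-like neurons, and in interactions 0 in DG-, 3 in Pvalb- and 4 in Sst-like neurons. Thinning, which lowers the counts, left 1 in DG-like neurons, and keeping doublets gave 1 in L4/5 IT-like neurons. With single libraries left out, counts ranged from 0 to 2 in L2/3 IT-, 0 to 5 in L4/5 IT-, 0 to 4 in L5/6 IT-, 0 to 4 in L6 CT-, 4 to 5 in DG-, 0 to 3 in CA3-, 0 to 4 in CA1-, 3 to 9 in Pvalb-, 6 to 13 in Sst-, 0 to 0 in Vip- and 1 to 4 in Lamp5-like neurons, and in interactions from 1 to 2 in DG-, 4 to 7 in Pvalb- and 4 to 9 in Sst-like neurons. The group left with 1 library is then assumed to vary like the other.

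With the replicate number as a block, which is here also a block for sex, 20 of the 23 calls held, and counts were 1 in L2/3 IT-, 2 in L4/5 IT-, 2 in L5/6 IT-, 3 in Pvalb-, 1 in Vip- and 3 in Lamp5-like neurons, against 6 in DG- and 11 in Sst-like neurons. The shares of all genes called with this block are not set beside these counts. Deviations of same-numbered libraries correlated at 0.10 to 0.23 across genes, with 2 pairs and no label that ties the numbers, so the numbers are not shown to pair the samples beyond sex. Depth limits the low genes most, as Kcna3 could be tested in 2 subtypes and Hcn4 in 1, and Cacna1g in DG-like neurons rests on 16 and 8 UMIs in the libraries labelled Sel1L SynCre.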
